A study of Mus musculus with 8 samples.

Results

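The 50 genes described here encode the machinery that copies DNA and the regulators that start that work. They were taken by symbol from a table of 43432 genes, and all 50 were found and tested. They were grouped by role into origin licensing, the MCM helicase, helicase activation, primase and polymerases, the sliding clamp and its loader, single-strand binding and lagging strand maturation, nucleotide supply, chromatin assembly and methylation maintenance, and S phase entry regulators. RNA was sequenced from CD8+ T cells of the OT-I line on the C57BL/6 strain, whose transgenic T cell receptor recognises a peptide of ovalbumin. All T cells had spent 72 hours in V-bottom wells with antigen-bearing dendritic cells (DC) of a single subset, and only cells that had divided were sorted for RNA. The DC partner was migratory CD103+ DC in 3 libraries (the CD103 DC group), lymph node resident CD8a+ DC in 3 libraries (the CD8a DC group) and migratory CD11b+ DC in 2 libraries, numbered 2 and 3 (the CD11b DC group). No library of unstimulated or undivided T cells was analysed, so every comparison is between DC partners. The age and sex of the mice and the way antigen was given are not stated in the labels, nor do they say whether each library had its own culture or mouse. The p-values thus set differences between group means only against the spread of these samples. That spread may not be one between separate cultures or mice, and part of it may be technical.

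Before a cell divides, the origin recognition complex, Cdc6 and Cdt1 load the MCM helicase onto DNA in G1, and cyclin-dependent kinase activity with Mcm10, Cdc45 and the GINS complex then switches the helicase on. Primase and the polymerases copy the strands behind it, held by the Pcna ring, while ribonucleotide reductase and thymidylate synthase supply the building blocks. Many of these genes are transcribed together in late G1 and S phase under E2F factors, and activated CD8+ T cells, which divide very rapidly, are known for high levels of them. In bulk RNA a larger share of cells in S phase and more RNA of these genes per cell cannot be told apart.

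Promoter sequence was examined because many of these genes are transcribed under E2F factors. The set was chosen as replication and S phase genes, so its motif shares describe the genes and not the DC partners. RefSeq promoters on GRCm38.p6, each 250 bases before to 50 bases after a start, were matched to 42 of the 50 members, and Gins4, Pole, Mcm4, Gins1, Gins2, Ccne2, Rfc2 and Prim2 had no entry. The E2F motif, searched as TTTCCCGC, TTTCGCGC, TTTGCCGC or TTTGGCGC on both strands, was found in 18 of the 42 member genes (42.9%), beside 2.605% of all 27025 genes with a promoter. The CCAAT box was found in 64.3% of the member genes and 41.1% of all genes, and the CHR element TTTGAA in 16.7% and 20.2%. A match describes the letters and is not evidence of binding. Some members were called higher with CD8a+ DC than with CD11b+ DC (adjusted p under 0.05 by limma-trend). Of these, 6 of the 15 with a promoter held the E2F motif, and of the other members 12 of 27 did. The 250 bases before the start of 4 of those higher members are shown, 2 with and 2 without the E2F motif, 5′ to 3′ on the strand of the gene. Capitals mark the E2F motif and the CCAAT box (ATTGG where it reads on the other strand). Mcm5 (chr8:75109259-75109508, plus strand) and Mcm6 (chr1:128359706-128359955, minus strand) each hold a run of capitals in which 2 E2F matches on opposite strands overlap, and Mcm6 holds a further match next to a CCAAT box. Mcm10 (chr2:5012792-5013041, minus strand) and Rrm2 (chr12:24708004-24708253, plus strand) hold CCAAT boxes and no E2F match in the window. The genes span chr8:75109569-75128439, chr1:128331590-128359664, chr2:4989714-5012791 and chr12:24708241-24714146 in the same order in the deposited table. Of the 50 promoter windows of the members, 41 matched the first bases of a GENCODE transcript, those of Mcm10 and Rrm2 among them. The windows of Mcm5 and Mcm6 did not match, and they lie just upstream of the deposited span. Nor did the windows of Cdk2, E2f2 and Mcm7 that hold their E2F matches. The E2F matches of Dnmt1, Lig1 and Uhrf1 lay beside an internal start and not beside the first one.
Mcm5: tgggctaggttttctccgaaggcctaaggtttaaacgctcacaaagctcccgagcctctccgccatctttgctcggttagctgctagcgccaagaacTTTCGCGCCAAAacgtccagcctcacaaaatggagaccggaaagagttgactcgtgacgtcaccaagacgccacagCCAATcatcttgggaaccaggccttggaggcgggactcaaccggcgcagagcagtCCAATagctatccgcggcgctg
Mcm6: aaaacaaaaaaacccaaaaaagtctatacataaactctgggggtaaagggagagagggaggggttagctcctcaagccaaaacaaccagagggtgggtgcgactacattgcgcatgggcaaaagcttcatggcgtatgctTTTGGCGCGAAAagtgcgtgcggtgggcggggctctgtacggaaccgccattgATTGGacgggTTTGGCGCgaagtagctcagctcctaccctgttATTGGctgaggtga
Mcm10: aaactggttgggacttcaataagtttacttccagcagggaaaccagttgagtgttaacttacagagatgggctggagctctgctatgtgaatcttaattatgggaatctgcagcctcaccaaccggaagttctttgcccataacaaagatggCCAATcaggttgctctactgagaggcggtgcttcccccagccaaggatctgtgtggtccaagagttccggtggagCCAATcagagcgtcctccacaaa
Rrm2: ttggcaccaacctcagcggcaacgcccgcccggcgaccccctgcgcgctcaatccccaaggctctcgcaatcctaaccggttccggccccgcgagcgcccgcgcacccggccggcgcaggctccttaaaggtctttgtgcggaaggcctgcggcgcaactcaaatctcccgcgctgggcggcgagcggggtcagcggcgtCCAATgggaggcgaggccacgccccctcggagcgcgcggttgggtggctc

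Depth was 16290950 to 21973146 recovered reads per library, and 49 of the 50 members had a mean of at least 300 normalized counts (gene counts divided by a size factor for each library). Fen1 is the exception, and its own values are given apart. On the first principal component of all genes the second CD8a DC library stood away from the other 7, and it also had the highest share of mitochondrially encoded transcripts, 11.8%. That share was 9.12% to 11.8% in the CD8a DC libraries, 6.69% to 7.72% in the CD103 DC libraries and 7.02% to 7.20% in the CD11b DC libraries. T cell identity genes summed to 124889 to 158603 normalized counts, with none of 14 at 0 in any library. The 18 DC marker genes summed to 7343 to 7957 normalized counts in the CD103 DC group, 2264 to 5254 in the CD8a DC group and 6944 to 9492 in the CD11b DC group, with 2 to 6 of them at 0. Of these, Itgax (CD11c) was at 0 in all libraries but CD8a DC replicate 3 (12.2) and CD11b DC replicate 2 (46.6), Cd209a was at 0 in all 8, and Ccl22, which led the list, was at 607 to 5910 normalized counts. H2-Aa, a chain of MHC class II, was at 280.2 to 498.7 normalized counts in the CD103 DC libraries and 48.4 to 82.5 in the others, higher in the CD103 DC group 5.17-fold over the CD8a DC and 7.23-fold over the CD11b DC group (adjusted p = 0.0071 and 0.012 by limma-trend). Cd74, the invariant chain, was at 158.3 to 1078.5 over the 8 libraries, and Sirpa was at 34.9 and 69.2 in the CD11b DC libraries and 0 to 1.9 in the others. With 17 DC markers tested, 4 were called higher and 0 lower in the CD103 DC than in the CD8a DC group (adjusted p under 0.05). Of all genes tested, 0.891% and 0.548% were. Over the CD11b DC group 1 marker was called higher and 1 lower, beside 0.132% and 0.2% of all genes. The 6 B cell markers summed to 17503 to 24531 normalized counts with 1 to 3 of them at 0, and Ighm alone, the IgM heavy chain, gave 17296 to 24070 of that. The 6 macrophage and monocyte markers summed to 91.5 to 371.0 with 4 or 5 at 0, and Pax5, Adgre1 and Cd14 were at 0 in all 8 libraries. The 3 CD4 and regulatory T cell markers, Cd4, Zbtb7b and Foxp3, summed to 414.7 to 450.9 normalized counts in the CD103 DC group, 143.0 to 189.2 in the CD8a DC group and 147.3 to 205.2 in the CD11b DC group, with none at 0. By limma-trend 1 of the 3 was called higher in the CD103 DC than in the CD8a DC group. The mitochondrial share, the DC marker sum and the CD4 and regulatory T cell marker sum move with the groups, and their part in the results was not tested.

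The members took the largest share of RNA in T cells cultured with CD8a+ DC and the smallest in T cells cultured with CD11b+ DC. Together they made up 0.714%, 0.575% and 0.915% of all normalized counts in the 3 CD8a DC libraries, 0.559%, 0.646% and 0.599% in the CD103 DC libraries, and 0.443% and 0.412% in the CD11b DC libraries. Both CD11b DC libraries lay below the other 6, whereas replicate 2 of the CD8a DC group lay inside the range of the CD103 DC group. The group mean was highest in the CD8a DC group for 50 of 50 members and followed the order CD8a DC, CD103 DC, CD11b DC for 48. Replicate 3 of the CD8a DC group was the highest of all 8 libraries for 45 members, and 1 of the CD11b DC libraries was the lowest for 44. In replicate 2 of the CD8a DC group, 17 members lay above all 3 CD103 DC libraries, 18 within their range and 15 below all of them, but 43 lay above both CD11b DC libraries. Among genes with a mean of at least 300, the fold of the CD8a DC over the CD11b DC group was above 1 for 51.9%. That of the CD103 DC over the CD8a DC group was above 1 for 47.6%. No share over all genes was taken for the library counts. The members were measured in the same 8 libraries, so a shifted library can move many of them and these counts are not independent.

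**Figure D1:**
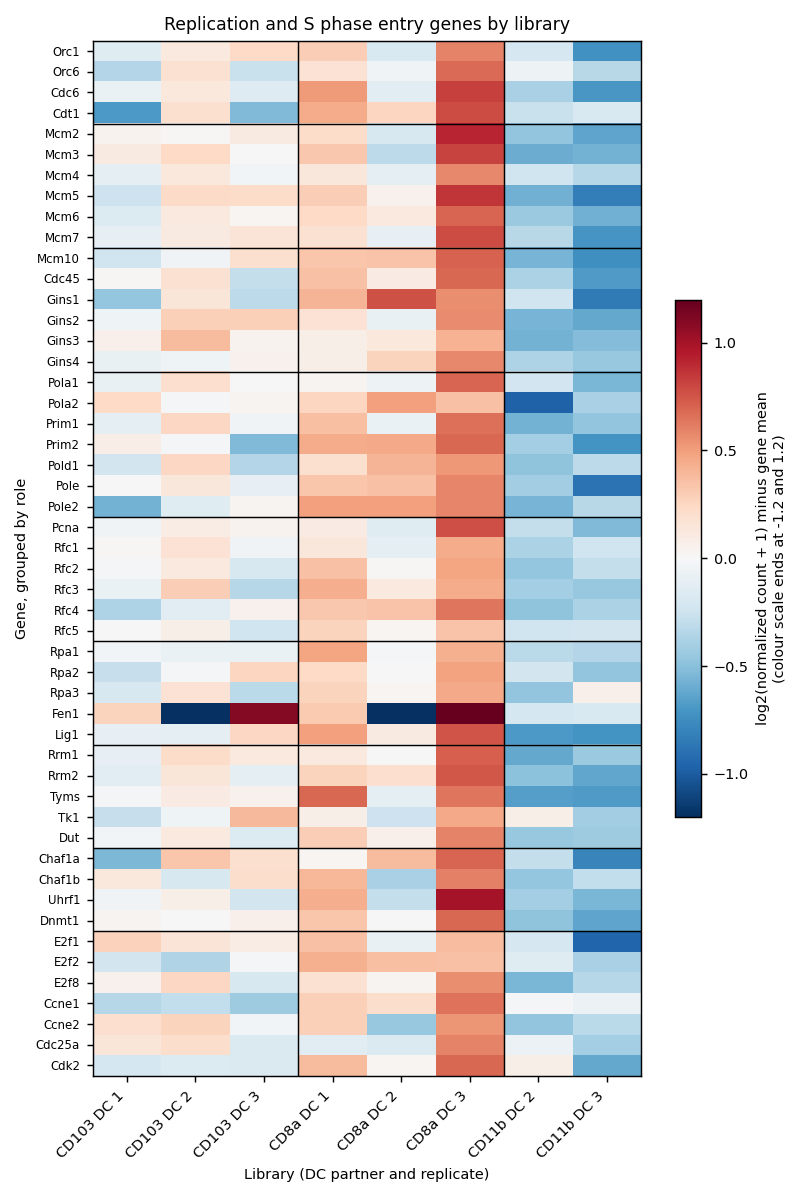
Level of each of the 50 genes (rows, grouped by role) in each of the 8 libraries (columns), as log2(normalized count + 1) minus the mean of the gene over the libraries. Replicate 3 of the CD8a DC group is the highest library in 45 rows, the CD11b DC columns hold the lowest value in 44, and replicate 2 of the CD8a DC group is mixed.

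The comparison of resident CD8a+ with migratory CD11b+ DC held most of the differences. With limma-trend on log2(normalized count + 1), 18 of the 50 members were higher in the CD8a DC group (adjusted p under 0.05, by the method of Benjamini and Hochberg across the 18971 genes tested), and 0 were lower. Among all genes tested, 1.07% were called higher and 0.901% lower in this comparison, and among genes with a mean of at least 300, 2.62%. The fold change was above 0 on the log2 scale for 50 of 50 members, with a median of 0.77, a 1.70-fold difference, where the median of all genes tested was -0.04 and that of genes with a mean of at least 300 was 0.02. The 2 groups did not overlap for 43 members, all with the CD8a DC group above, as was so for 12.8% of all genes tested and 20.7% of those with a mean of at least 300. At an unadjusted p under 0.05, 44 members were higher, against 6.27% of all genes. Called members were 2 of 6 in the MCM helicase, 3 of 6 in helicase activation, 5 of 7 among primase and polymerases, 2 of 5 in single-strand binding and lagging strand maturation, 4 of 5 in nucleotide supply, 1 of 4 in chromatin assembly and methylation maintenance and 1 of 7 among S phase entry regulators, with 0 of 4 in origin licensing and 0 of 6 in the clamp and clamp loader.

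The number of calls rested on the full set of libraries. Without 1 library it was 0 without CD103 DC replicate 1, CD8a DC replicate 1, CD11b DC replicate 2 or CD11b DC replicate 3, and 1, 4, 14 and 6 without CD103 DC replicate 2, CD103 DC replicate 3, CD8a DC replicate 2 and CD8a DC replicate 3. In those fits 28 to 46 members had an unadjusted p under 0.05, beside 1773 to 2868 of the 18971 genes tested, of which 0 to 223 were called. All 50 fold changes stayed above 0 except 1 without CD8a DC replicate 3, and the median lay between 0.59 and 0.90. A fit with 1 CD11b DC library takes its spread from the other groups. Tests on the recovered reads called 17 members higher with edgeR, beside 0.959% of all genes, and 36 with DESeq2, beside 533 of 18932 genes. The authors' deposited table lists 35 of 50 as higher and 0 as lower at an adjusted p under 0.05, beside 4.5% of all genes.

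**Figure D2:**
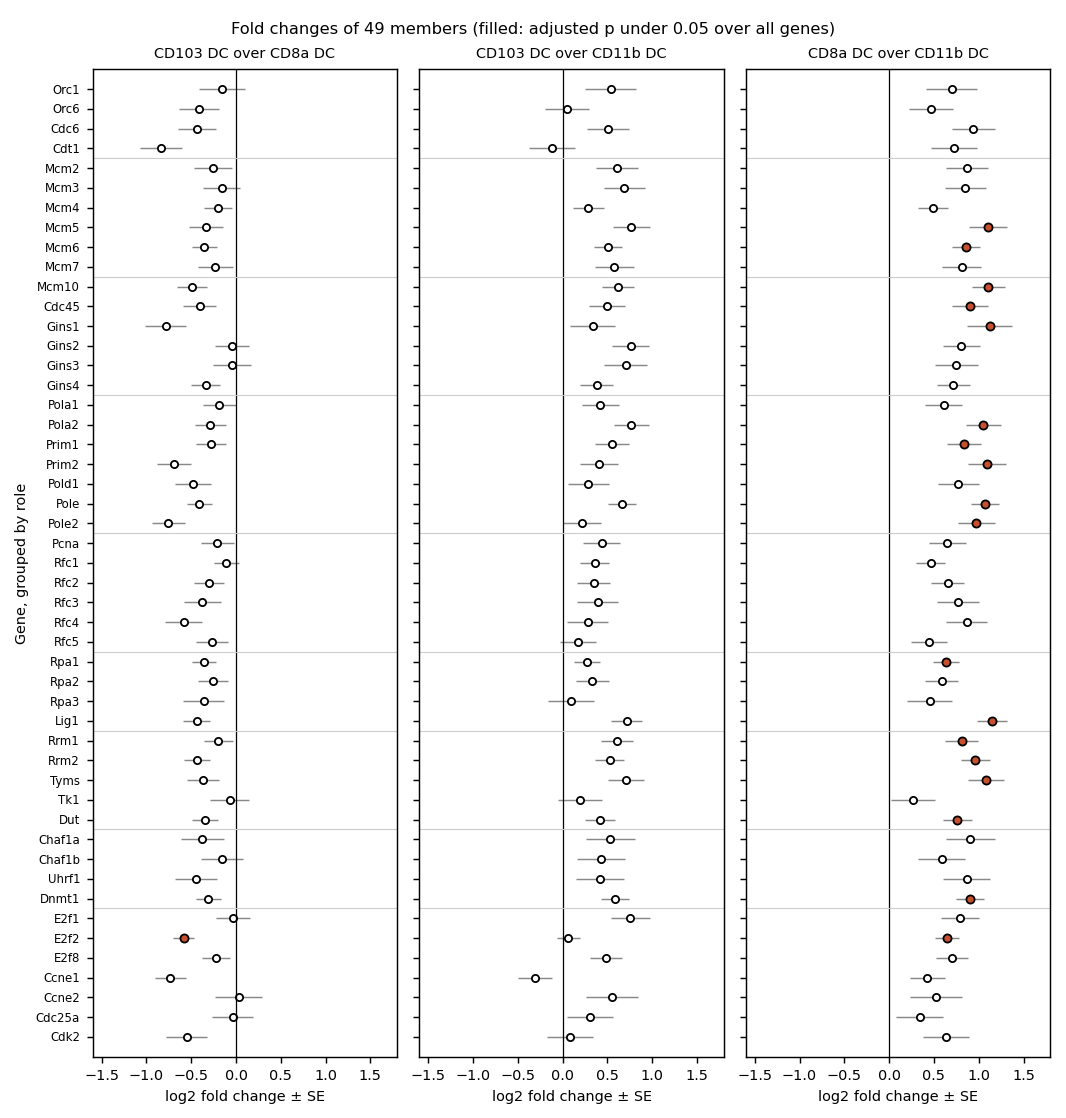
Fold change of 49 members (all but Fen1) in each pair of groups, as a log2 difference with its standard error from the limma-trend fit. Filled points passed an adjusted p of 0.05, which 18 members did for the CD8a DC over the CD11b DC group, 1 for the CD103 DC over the CD8a DC group and 0 for the CD103 DC over the CD11b DC group.

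Among the licensing genes no member passed in any comparison, and Cdt1 had another pattern than Cdc6. Cdc6, the ATPase that helps load the helicase, was at 1272, 1469 and 1211 normalized counts with CD103+ DC, 1914, 1226 and 2377 with CD8a+ DC and 1028 and 829.8 with CD11b+ DC. The second CD8a DC library sat inside the CD103 DC range, and both CD11b DC libraries lay below the rest. Its log2 fold change of the CD8a DC over the CD11b DC group was 0.94 ± 0.24 (± SE, as for all log2 fold changes here), with an adjusted p of 0.061 by limma-trend. Cdt1, which brings the helicase to the origin and is destroyed in S phase, was at 477, 875 and 530.4 with CD103+ DC, 1048, 917 and 1319 with CD8a+ DC and 636 and 676 with CD11b+ DC. All 3 CD8a DC libraries were above all others, and the CD103 DC libraries lay on both sides of the CD11b DC pair. The log2 fold change of Cdt1 in the CD103 DC over the CD8a DC group was -0.84 ± 0.23, with an adjusted p of 0.11 by limma-trend. Orc1 and Orc6, subunits of the origin recognition complex, had log2 fold changes of 0.70 and 0.46 in the CD8a DC over the CD11b DC group. Their CD8a DC libraries lay above both CD11b DC libraries, as for 20.7% of genes with a mean of at least 300. For Orc1 the gap was small, 359.1 in CD8a DC replicate 2 against 355.7 in CD11b DC replicate 2.

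All 6 MCM subunits had the same order of group means, and Mcm5 and Mcm6 passed the test. These subunits form the ring that unwinds DNA. Mcm5 was at 3495, 4884 and 4858 normalized counts with CD103+ DC, 5094, 4323 and 7562 with CD8a+ DC and 2797 and 2339.8 with CD11b+ DC. The CD11b DC libraries lay below all others, whereas the other groups overlapped. The fold of the CD8a DC over the CD11b DC group for Mcm5 was 2.15 (log2 1.10 ± 0.21, adjusted p = 0.014 by limma-trend). Mcm6 was at 5596, 6764 and 6364 with CD103+ DC, 7365, 6779 and 10119 with CD8a+ DC and 4598 and 4179.6 with CD11b+ DC. The 3 groups did not overlap, in the order CD8a DC, CD103 DC, CD11b DC, though replicate 2 of the CD8a DC group was only just above the highest CD103 DC library. For Mcm6 the fold of the CD8a DC over the CD11b DC group was 1.82 (log2 0.86 ± 0.16, adjusted p = 0.011 by limma-trend). Mcm2 was at 2111, 2072 and 2219 with CD103+ DC, 2386, 1802 and 3858 with CD8a+ DC and 1479 and 1323 with CD11b+ DC. Here the CD103 DC libraries were close together and the CD8a DC libraries lay on both sides of them. The log2 fold change of Mcm2 in the CD8a DC over the CD11b DC group was 0.87 ± 0.24 (adjusted p = 0.086 by limma-trend), and those of Mcm3, Mcm4 and Mcm7 were 0.85, 0.49 and 0.81.

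The subunits also differ in level. Per kilobase of coding sequence, and averaged over all 8 libraries, normalized counts were 2627 ± 749 for Mcm6, 2032 ± 694 for Mcm3, 2007 ± 740 for Mcm5, 1772 ± 380 for Mcm4, 970 ± 305 for Mcm7 and 795 ± 287 for Mcm2 (SD, n = 8). Mcm6 was the highest and Mcm2 the lowest subunit in each of the 8 libraries, per kilobase of coding sequence and per kilobase of transcript, whereas the neighbours Mcm3, Mcm5 and Mcm4 lay within each other's spread. Over the whole set, Pcna had the highest level per kilobase of transcript, 2742 ± 802, followed by Dut at 2462 ± 622, and, Fen1 apart, Orc1 had the lowest, 140 ± 37.6, next to Ccne2 at 142 ± 36.7. The Pcna and Dut levels differ by less than their spread, as do those of Orc1 and Ccne2. The length chosen matters for genes with long untranslated regions: Gins2 ranked 15 of 50 per coding kilobase and 40 per transcript kilobase.

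Helicase activation genes followed, with Mcm10, Cdc45 and Gins1 called higher with CD8a+ than with CD11b+ DC. Mcm10, which joins the helicase to the primase machinery, was at 1179.8, 1349 and 1591 normalized counts with CD103+ DC, 1750.2, 1765 and 2273 with CD8a+ DC and 943 and 835 with CD11b+ DC. None of the 3 groups overlapped. The fold of the CD8a DC over the CD11b DC group for Mcm10 was 2.16 (log2 1.11 ± 0.18, adjusted p = 0.0071 by limma-trend). Cdc45, a subunit of the active helicase, was at 1520.1, 1709 and 1237 with CD103+ DC, 1918, 1609 and 2423 with CD8a+ DC and 1159 and 939.7 with CD11b+ DC. Its CD11b DC libraries were the lowest, and replicate 2 of the CD8a DC group fell below the highest CD103 DC library. For Cdc45 the fold of the CD8a DC over the CD11b DC group was 1.87 (log2 0.91 ± 0.20, adjusted p = 0.033 by limma-trend). Gins1, part of the GINS complex, was at 439, 672 and 489 with CD103+ DC, 804, 1030.0 and 893 with CD8a+ DC and 512 and 336 with CD11b+ DC. All 3 CD8a DC libraries were above the other 5, with replicate 2 the highest, and the CD103 DC and CD11b DC groups overlapped. Its fold of the CD8a DC over the CD11b DC group was 2.18 (log2 1.12 ± 0.25, adjusted p = 0.035 by limma-trend). Gins2, Gins3 and Gins4 did not pass, with log2 fold changes of 0.81, 0.75 and 0.72. The exons of Gins2 share 67.3% of their bases with Gse1 on the other strand, and since the strand setting is not given, reads of the pair cannot be told apart.

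Of the 7 primase and polymerase genes, 5 were called higher with CD8a+ than with CD11b+ DC, beside 1.07% of all genes tested. That was the largest share of any role apart from nucleotide supply, among roles of 4 to 7 genes. Pole, the catalytic subunit of the leading strand polymerase epsilon, was at 3009.7, 3322 and 2835 normalized counts with CD103+ DC, 3806, 3862 and 4535 with CD8a+ DC and 2266 and 1639 with CD11b+ DC. The 3 groups were fully separate. Pole had the smallest adjusted p of the set, with a fold of 2.10 of the CD8a DC over the CD11b DC group (log2 1.07 ± 0.16, adjusted p = 0.0039 by limma-trend). Pole2, a further subunit of that polymerase, was at 556, 746 and 845 with CD103+ DC, 1166, 1163 and 1243 with CD8a+ DC and 561 and 656 with CD11b+ DC. The CD8a DC libraries were tightly grouped above all others, and the other groups overlapped. Pole2 had a fold of 1.96 of the CD8a DC over the CD11b DC group (log2 0.97 ± 0.21, adjusted p = 0.027 by limma-trend).

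The primase subunits make the RNA primers and Pola2 is the regulatory subunit of polymerase alpha, which extends them. Pola2 was at 1434, 1194 and 1238 normalized counts with CD103+ DC, 1451, 1708 and 1547 with CD8a+ DC and 617 and 923 with CD11b+ DC. Its groups did not overlap, but replicate 1 of the CD103 DC group was only just below replicate 1 of the CD8a DC group. Its fold of the CD8a DC over the CD11b DC group was 2.07 (log2 1.05 ± 0.19, adjusted p = 0.012 by limma-trend). Prim1, the catalytic primase subunit, was at 2374, 3042 and 2492 with CD103+ DC, 3283, 2423 and 4055 with CD8a+ DC and 1730.0 and 1839.8 with CD11b+ DC. The second CD8a DC library lay among the CD103 DC libraries, and both CD11b DC libraries lay below. Prim1 had a fold of 1.78 (log2 0.83 ± 0.19, adjusted p = 0.039 by limma-trend) in that comparison. Prim2, the large primase subunit, was at 1042, 966 and 683 with CD103+ DC, 1342, 1350.1 and 1589 with CD8a+ DC and 743 and 599 with CD11b+ DC. Again the CD8a DC libraries were above the other 5, which overlapped among themselves. Prim2 had a fold of 2.13 (log2 1.09 ± 0.21, adjusted p = 0.015 by limma-trend). Pola1 and Pold1, the catalytic subunits of polymerases alpha and delta, had log2 fold changes of 0.61 and 0.77 and did not pass.

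None of the 6 genes of the clamp and its loader passed. The CD8a DC libraries lay above both CD11b DC libraries for each of them, as for 20.7% of genes with a mean of at least 300. Pcna, the sliding clamp, was at 3910.3, 4292 and 4159.5 normalized counts with CD103+ DC, 4310.3, 3652 and 6881 with CD8a+ DC and 3310.5 and 2789 with CD11b+ DC. The CD8a DC library of replicate 3 was far above the other 7 libraries, and replicate 2 fell below all CD103 DC libraries. The log2 fold change of Pcna in the CD8a DC over the CD11b DC group was 0.65 ± 0.20 (adjusted p = 0.14 by limma-trend). Rfc4, a subunit of the clamp loader, was at 400.5, 474 and 537 with CD103+ DC, 649, 656 and 809.7 with CD8a+ DC and 371 and 399 with CD11b+ DC. Its groups did not overlap in any pair, but CD103 DC replicate 1 (400.5) was only just above CD11b DC replicate 3 (398.9). For Rfc4 the log2 fold change was 0.87 ± 0.23 (adjusted p = 0.074 by limma-trend). Of its exon bases, 12.7% are shared with Eif4a2 on the other strand, which was at 8068 to 9579 normalized counts. Rfc2, another subunit of the loader, was at 1112, 1224 and 988 with CD103+ DC, 1439.5, 1135 and 1558 with CD8a+ DC and 817 and 921 with CD11b+ DC. The CD11b DC libraries were the lowest and the other groups overlapped. Rfc2 had a log2 fold change of 0.65 ± 0.19 (adjusted p = 0.10 by limma-trend), and Rfc1, Rfc3 and Rfc5 had 0.46, 0.77 and 0.44.

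Lig1 had the largest fold of the 50 members with CD8a+ over CD11b+ DC. This ligase, which joins the Okazaki fragments of the lagging strand, was at 5356, 5320.0 and 6826 normalized counts with CD103+ DC, 8059, 6178 and 9686 with CD8a+ DC and 3566 and 3494 with CD11b+ DC. The CD11b DC pair was close together and below the rest, and replicate 2 of the CD8a DC group fell within the CD103 DC range. The fold for Lig1 was 2.22 (log2 1.15 ± 0.17, adjusted p = 0.0040 by limma-trend). Rpa1, the large subunit of the complex that coats single-stranded DNA, was at 4255, 4113 and 4109 with CD103+ DC, 6023, 4292 and 5839 with CD8a+ DC and 3471 and 3399 with CD11b+ DC. No groups overlapped, although replicate 2 of the CD8a DC group was just above the CD103 DC libraries. Rpa1 had a fold of 1.55 (log2 0.63 ± 0.15, adjusted p = 0.039 by limma-trend), and Rpa2 and Rpa3, the smaller subunits, had log2 fold changes of 0.59 and 0.45 and did not pass. Fen1, the flap endonuclease of the lagging strand, was at 7.9, 1.9 and 14.9 normalized counts with CD103+ DC, 8.2, 1.8 and 19.3 with CD8a+ DC and 5.4 and 5.5 with CD11b+ DC, near the level of a few reads. Its exons share 78.8% of their bases with the antisense gene Gm10143, whose reads cannot be told apart from its own without strand. No fold is given for Fen1 alone, but it is included in the counts and medians over the 50 members.

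Nucleotide supply had 4 of 5 members called higher with CD8a+ than with CD11b+ DC, beside 1.07% of all genes tested. Rrm1 and Rrm2 are the subunits of ribonucleotide reductase, which makes deoxynucleotides. Rrm1 was at 6903, 8599 and 8039 normalized counts with CD103+ DC, 8005, 7382 and 12208 with CD8a+ DC and 4821 and 5437 with CD11b+ DC. Rrm2 was at 3769, 4542 and 3803 with CD103+ DC, 4955, 4741 and 6895 with CD8a+ DC and 2919 and 2677 with CD11b+ DC. The 3 groups were separate for Rrm2, and for Rrm1 the CD103 DC and CD8a DC groups overlapped. The folds of the CD8a DC over the CD11b DC group were 1.75 for Rrm1 (log2 0.81 ± 0.18, adjusted p = 0.033) and 1.95 for Rrm2 (log2 0.96 ± 0.16, adjusted p = 0.0076) by limma-trend. Tyms, thymidylate synthase, was at 2579.6, 2816 and 2716 with CD103+ DC, 4246, 2425 and 4090.4 with CD8a+ DC and 1662 and 1636 with CD11b+ DC. The second CD8a DC library lay below the CD103 DC libraries while the other CD8a DC libraries lay well above them. Tyms had a fold of 2.11 (log2 1.08 ± 0.20, adjusted p = 0.013 by limma-trend). Dut, the dUTPase that keeps uracil out of DNA, was at 2388, 2659.5 and 2181 with CD103+ DC, 2999, 2558 and 3701 with CD8a+ DC and 1778 and 1822 with CD11b+ DC. The CD11b DC libraries were below all others. Dut had a fold of 1.69 (log2 0.76 ± 0.16, adjusted p = 0.028 by limma-trend), and Tk1, the salvage enzyme thymidine kinase, had a log2 fold change of 0.27 ± 0.24 with overlapping groups (adjusted p = 0.70 by limma-trend).

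**Figure D3:**
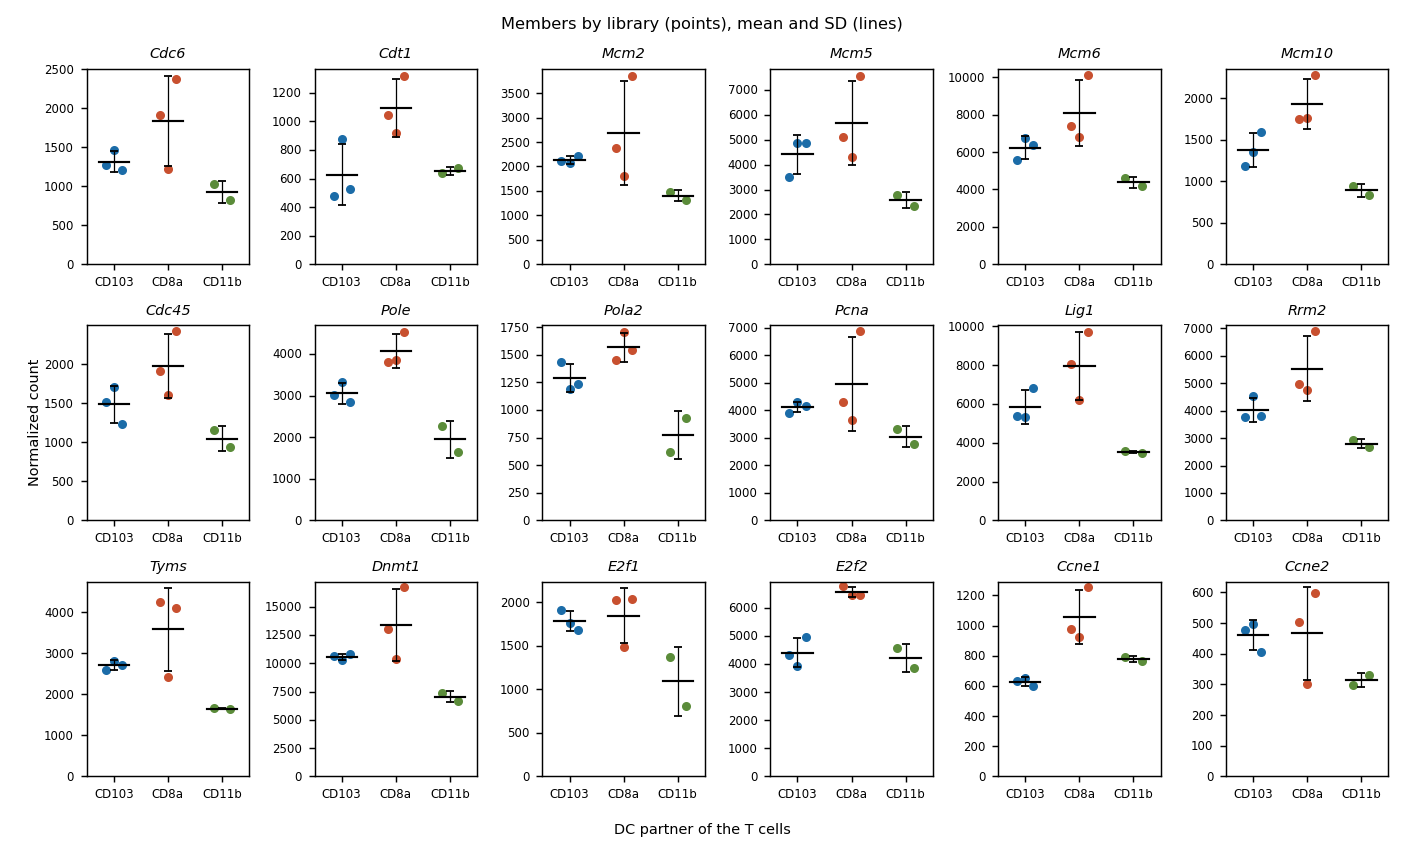
Normalized count (vertical axis, from 0) of 18 members by DC partner, with a point per library, the mean as a horizontal line and the SD as a vertical bar. Both CD11b DC points lie lowest for genes such as Mcm5, Lig1 and Tyms, the CD8a DC points are tight for E2f2, and Ccne1 is lowest with CD103+ DC.

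Of the genes that rebuild chromatin behind the fork, Dnmt1 passed. This methyltransferase copies DNA methylation onto the new strand and had the highest normalized count of the 50 members, 10601, 10312 and 10809 with CD103+ DC, 13019, 10383 and 16702 with CD8a+ DC and 7407 and 6681 with CD11b+ DC. The CD103 DC libraries differed little from each other, replicate 2 of the CD8a DC group lay among them, and the CD11b DC pair lay below. Dnmt1 had a fold of 1.86 of the CD8a DC over the CD11b DC group (log2 0.90 ± 0.15, adjusted p = 0.0084 by limma-trend). Chaf1a, the large subunit of the histone chaperone CAF-1, was at 700.4, 1281 and 1163 with CD103+ DC, 1036, 1331 and 1650.0 with CD8a+ DC and 836 and 588 with CD11b+ DC. The CD103 DC libraries were spread across the range of both other groups. Chaf1a had a log2 fold change of 0.91 ± 0.27 (adjusted p = 0.12 by limma-trend), and 52.5% of its exon bases are shared with Ubxn6 on the other strand. Uhrf1, which guides Dnmt1 to new DNA, and Chaf1b had log2 fold changes of 0.87 and 0.59 and did not pass.

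The regulators of S phase entry did not share a single pattern. E2f2, an activating E2F factor, was at 4311, 3922 and 4965 normalized counts with CD103+ DC, 6772, 6457 and 6430.1 with CD8a+ DC and 4565 and 3847 with CD11b+ DC. All 3 CD8a DC libraries, replicate 2 included, were close together and above the other 5, which overlapped. E2f2 was higher in the CD8a DC than in the CD11b DC group by a fold of 1.56 (log2 0.64 ± 0.13, adjusted p = 0.020 by limma-trend), and lower in the CD103 DC than in the CD8a DC group (log2 -0.58 ± 0.12, adjusted p = 0.027). E2f1, the founding activating member, was at 1913, 1765 and 1686 with CD103+ DC, 2023, 1483 and 2043 with CD8a+ DC and 1371 and 814 with CD11b+ DC. The second CD8a DC library was below all CD103 DC libraries, and the CD11b DC libraries were the lowest and far apart. E2f1 had log2 fold changes of -0.04 ± 0.19 in the CD103 DC over the CD8a DC group, whose sign turned with library-size scaling, and 0.79 ± 0.21 in the CD8a DC over the CD11b DC group (adjusted p = 0.085 by limma-trend).

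Ccne1 differed in order from most of the other members. This cyclin, which with Cdk2 drives the G1 to S transition, was at 633, 655 and 598 normalized counts with CD103+ DC, 980.0, 927 and 1258 with CD8a+ DC and 790.2 and 766 with CD11b+ DC. The 3 groups did not overlap, with the CD103 DC group lowest and the CD8a DC group highest. It was the only member with CD103 DC libraries all below the CD11b DC libraries. The log2 fold change of Ccne1 was -0.73 ± 0.17 in the CD103 DC over the CD8a DC group (adjusted p = 0.054) and -0.31 ± 0.19 in the CD103 DC over the CD11b DC group (adjusted p = 0.70), so neither passed by limma-trend, whereas the authors' deposited table lists the first at an adjusted p of 0.00088. Ccne2, its paralog, had log2 fold changes of 0.03, 0.55 and 0.52 in the CD103 DC over CD8a DC, CD103 DC over CD11b DC and CD8a DC over CD11b DC comparisons. Per kilobase of transcript Ccne1 stood at 413 ± 111 normalized counts and Ccne2 at 142 ± 36.7 (SD, n = 8), with Ccne1 above Ccne2 in 8 of 8 libraries. Of the exon bases of Ccne2, 17.4% are shared with Ints8 on the other strand, which was at 1247 to 1831 normalized counts. The strand setting is not given. Cdk2, E2f8, a repressive E2F factor, and Cdc25a, the phosphatase that activates Cdk2, had log2 fold changes of 0.64, 0.71 and 0.34 in the CD8a DC over the CD11b DC group and did not pass.

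Between the CD103+ and CD8a+ partners, E2f2 was the only member called, lower in the CD103 DC group. Of all genes tested 0.548% were called lower and 0.891% higher, and of those with a mean of at least 300, 1.28% and 1.53%. The log2 fold change was below 0 for 49 of 50 members, with a median of -0.34 (all genes tested 0.02), and 18 members had an unadjusted p under 0.05, all lower, against 5.71% of all genes. The libraries did not overlap for 15 members, all with the CD103 DC group below. This was so for 7.72% of all genes tested and 12.8% of those with a mean of at least 300. Of the other 35 members, 22 had replicates 1 and 3 of the CD8a DC group above all CD103 DC libraries, so that the overlap came from replicate 2. The size of this comparison depended on replicate 3 of the CD8a DC group: without it the median was -0.20 and 34 members were below 0, and Mcm2, Pcna, Rrm1 and E2f1 turned to the other sign. Without replicate 2 of that group the median was -0.47 and 50 of 50 were below 0. Leaving out any 1 of the 8 libraries left 0 members called by limma-trend, with 9 to 30 members at an unadjusted p under 0.05, beside 1895 to 2746 of all genes tested, and an adjusted p for E2f2 of 0.057 to 0.24. The largest differences were those of Cdt1 (log2 -0.84), Gins1 (-0.78), Pole2 (-0.75), Ccne1 (-0.73) and Prim2 (-0.69), none of which passed by limma-trend, with adjusted p from 0.054 to 0.13. The authors' deposited table lists those 5 and E2f2, 6 of 50, as lower, beside 2.74% of all genes.

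Between the 2 migratory partners no member was called, where limma-trend called 0.132% of all genes tested higher with CD103+ DC and 0.2% lower. For genes with a mean of at least 300 these shares were 0.232% and 0.45%. At an unadjusted p under 0.05, 21 members were higher and 0 lower, against 4.83% of all genes called higher at that level. The log2 fold change was above 0 for 48 of 50 members, with a median of 0.43 (all genes tested 0.00), the exceptions being Cdt1 at -0.12 and Ccne1 at -0.31. The libraries did not overlap for 34 members with the CD103 DC group above, beside 14.0% of all genes tested. They did not for 1, Ccne1, with it below, beside 14.2%. Among genes with a mean of at least 300 the 2 shares were 20.9% and 18.6%. Mcm5 at 0.77 ± 0.21, Pola2 at 0.77 ± 0.19 and Gins2 at 0.76 ± 0.21 had the largest log2 fold changes, with adjusted p of 0.19, 0.14 and 0.19 by limma-trend. With edgeR on the recovered reads 0 members were called, beside 0.105% of all genes called higher, and with DESeq2 8 were, beside 180 of 18932 genes called higher. The authors' deposited table lists 8 of 49 as higher, namely Dnmt1, Gins2, Lig1, Mcm10, Mcm5, Pola2, Pole and Tyms, beside 1.63% of all genes. The 3 comparisons share libraries, so the CD103 DC libraries enter both of those above and the values are not independent of each other. A test for any difference among the 3 groups called 12 members, beside 2.54% of all genes.

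**Figure D4:**
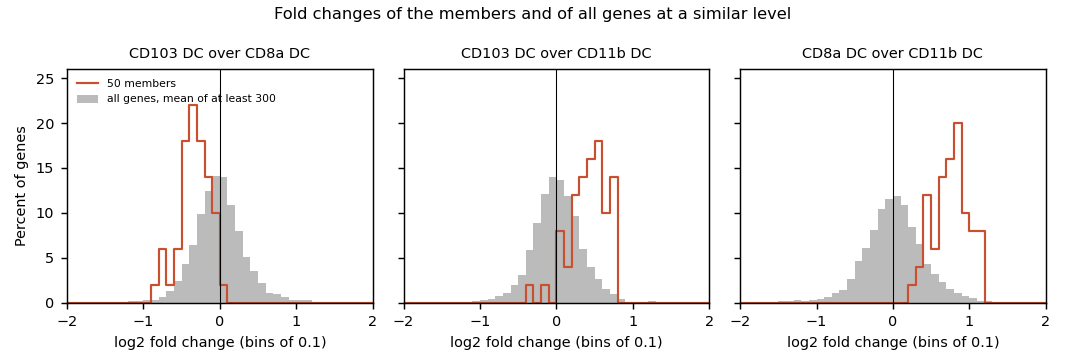
Share of genes in bins of 0.1 of the log2 fold change for the 50 members (line) and for all genes with a mean of at least 300 normalized counts (grey bars), for each pair of groups. The member medians of -0.34, 0.43 and 0.77 lie off the centre of the grey bars, which is near 0 in each panel.

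Further genes of DNA replication, 43 in number, showed differences in both directions. In the CD8a DC over the CD11b DC comparison 10 were called higher and 2 lower, beside 1.07% and 0.901% of all genes tested. In the CD103 DC over the CD8a DC comparison 1 was called lower, beside 0.548%. In the CD103 DC over the CD11b DC comparison 1 was called higher, beside 0.132%. Clspn, an adaptor of the checkpoint at stalled forks, was at 2375, 3073 and 2390.1 normalized counts with CD103+ DC, 3382, 3015 and 3838 with CD8a+ DC and 1425 and 1483 with CD11b+ DC. Its CD11b DC libraries were far below the rest, and it was the gene called higher in the CD103 DC than in the CD11b DC group (log2 0.83 ± 0.16, adjusted p = 0.042 by limma-trend). Timeless, of the fork protection complex, Ticrr, which helps load Cdc45, and Asf1b, a histone chaperone, were also higher with CD8a+ than with CD11b+ DC, with log2 fold changes of 0.97, 0.90 and 1.28 and adjusted p of 0.0064, 0.0065 and 0.010 by limma-trend. Dck, the salvage enzyme deoxycytidine kinase, was at 2554, 2648 and 2118 with CD103+ DC, 4041, 4184 and 4053 with CD8a+ DC and 3005 and 2632 with CD11b+ DC. It was lower in the CD103 DC than in the CD8a DC group (log2 -0.75 ± 0.12, adjusted p = 0.0086 by limma-trend), with the CD8a DC libraries tightly together.

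The 2 genes of that list that were called lower with CD8a+ than with CD11b+ DC, named here after their values were seen, both bear on nucleotide pools. Samhd1, which breaks down deoxynucleotides, was at 18393, 16779 and 21064 normalized counts with CD103+ DC, 13658, 16016 and 8051 with CD8a+ DC and 22138 and 25114 with CD11b+ DC. The CD8a DC library of replicate 3, the highest library for most members, was the lowest for Samhd1. Its log2 fold change of the CD8a DC over the CD11b DC group was -0.97 ± 0.21 (adjusted p = 0.030 by limma-trend). Rrm2b, the reductase subunit induced by p53 and used outside S phase, was at 709, 586 and 551 with CD103+ DC, 368, 294 and 495 with CD8a+ DC and 804 and 775 with CD11b+ DC. The CD8a DC libraries lay below all others, with a log2 fold change of -1.06 ± 0.25 over the CD11b DC group (adjusted p = 0.043 by limma-trend), while Rrm2, its S phase counterpart, was 0.96.

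Among 26 further genes of G1/S control, 2 were called higher and 1 lower in the CD8a DC than in the CD11b DC group. Of all genes tested, 1.07% and 0.901% were. In the CD103 DC over the CD8a DC comparison 2 were called higher and 1 lower, beside 0.891% and 0.548% of all genes tested. Between the migratory partners 6 of them had an unadjusted p under 0.05, all higher with CD103+ DC, beside the 4.83% of all genes given above, and none passed by limma-trend. Ccnd2, a D-type cyclin that acts in G1 with Cdk4 and Cdk6, was at 8954, 7979 and 9029 normalized counts with CD103+ DC, 5610.3, 4806 and 4489 with CD8a+ DC and 7607 and 8487 with CD11b+ DC. The CD8a DC libraries were below all others, with a log2 fold change of 0.80 ± 0.11 in the CD103 DC over the CD8a DC group (adjusted p = 0.0040) and -0.70 ± 0.12 in the CD8a DC over the CD11b DC group (adjusted p = 0.0097) by limma-trend. Cdkn1a, the p21 inhibitor of cyclin-dependent kinases, was at 1168, 744 and 849 with CD103+ DC, 294, 209.5 and 454 with CD8a+ DC and 833 and 542 with CD11b+ DC. Again the CD8a DC libraries were the lowest, and the CD103 DC over CD8a DC fold was 2.97 (log2 1.57 ± 0.29, adjusted p = 0.016 by limma-trend). Cdkn2d, the p19 inhibitor of Cdk4 and Cdk6, was lower in the CD103 DC than in the CD8a DC group (log2 -0.63 ± 0.12, adjusted p = 0.021). Ccna2, the cyclin of S phase and G2, and Skp2, which marks p27 for destruction, were higher with CD8a+ than with CD11b+ DC, with log2 fold changes of 0.67 ± 0.13 and 1.06 ± 0.22 and adjusted p of 0.015 and 0.025 by limma-trend.

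**Figure D5:**
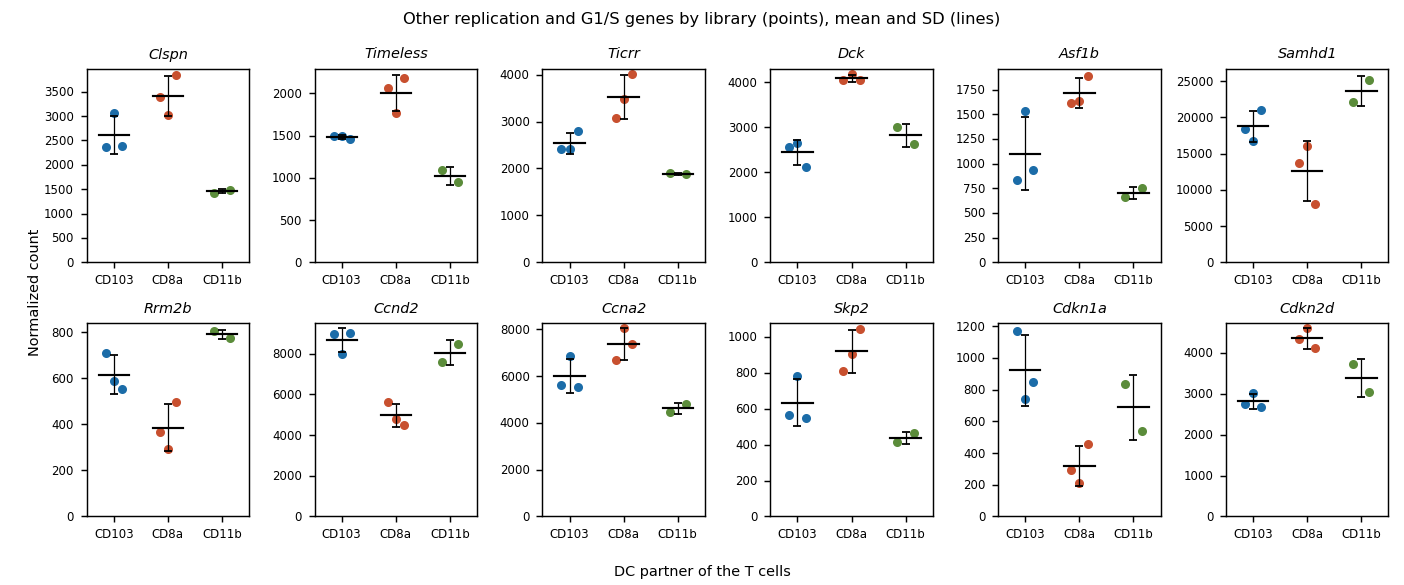
Normalized count (vertical axis, from 0) of 12 replication and G1/S genes outside the set of 50 by DC partner, with a point per library, the mean as a horizontal line and the SD as a vertical bar. Clspn, Timeless and Skp2 are lowest with CD11b+ DC, whereas Samhd1, Rrm2b, Ccnd2 and Cdkn1a are lowest with CD8a+ DC.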

How the data were processed

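Total RNA of sorted T cells was sequenced in 8 libraries, grouped by the DC partner in the labels (n = 3, 3 and 2). The submitters' processing notes name STAR 2.4.2a, DESeq2 without a version, and the build GRCm38. Which counter, annotation release and strand setting were used is not given in the sources used. The authors deposited normalized counts, per the file headers, a signal equal to the count of a gene over the size factor of its library. They also deposited log2 fold changes, fold changes (ratio), p-values and adjusted p-values for each pair of groups and a GC percent per gene. Low values were whole multiples of a step, and 100% of values up to 30 reads came out whole within 0.1 of a read, which gave 16290950 to 21973146 reads per library. The deposited p-values and log2 fold changes are quoted only as the authors' own.

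The members and gene lists were chosen with earlier results of these data known. limma-trend (limma 3.58.1, R 4.3.3; trend on, robust off) was fitted to log2(normalized count + 1) of the 18971 genes with a mean of at least 1, with 3 group means, no block and 5 residual degrees of freedom. The threshold was an adjusted p under 0.05, with the Benjamini-Hochberg method run across every gene tested. Fold changes are on the log2(normalized count + 1) scale. Values per library are given for the 27 members that passed or ranked first or second in their role by the test for any difference, plus Mcm2, Pcna, Rrm2, Ccne1, E2f1 and Dnmt1, and up to 6 passing genes per further list are named, of which 1 is not reported here. Alternatives covered the pseudocount, low-value filter, scaling, edgeR 4.0.16 and DESeq2 1.42.0 on recovered reads, GC and coding length, a replicate block and each library left out. The steps were tested on simulated data. Lengths and overlaps came from GENCODE on GRCm38, and promoter letters from RefSeq on GRCm38.p6.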

Additional observations from a re-analysis of the deposited data

How the results depend on the processing

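The count of members called higher in the CD8a DC over the CD11b DC group was 18. It was 13 to 24 under the pseudocounts, filters, scalings, edgeR, GC and length corrections and the replicate block, and 36 with DESeq2. All genes called higher numbered 203, 150 to 298 and 533 in the same order, of 13679 to 23484 genes tested. With DESeq2 the members called were 6 for CD103 DC over CD8a DC (against 1), 8 for CD103 DC over CD11b DC (against 0) and 32 for any difference (against 12), and all genes called were 781, 336, 906 and 1255 for CD103 DC over CD8a DC, CD103 DC over CD11b DC, CD8a DC over CD11b DC and any difference, against 273, 63, 374 and 482. For CD103 DC over CD8a DC the members called were 2 with a mean of at least 10, beside 320 of 13724 genes. They were 2 with the GC correction, beside 263 of 18829, and 5 with the GC and coding length correction, beside 355 of 13679. With the replicate block they were 0, beside 181 of 18971. Without a filter 159 of 23484 genes were called, with 1 member among them. Same-numbered libraries correlated at -0.020 to 0.015 in their deviations from the group means, and differently numbered ones at -0.015 to 0.024. Whether the numbers mark a shared culture or mouse cannot be told from these values. The block called 14 members for CD8a DC over CD11b DC, all higher, beside 150 of 18971 genes called higher.

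With each library left out in turn, members called numbered 0 in every fit for CD103 DC over CD8a DC and for CD103 DC over CD11b DC, and ranged from 0 to 14 for CD8a DC over CD11b DC and from 0 to 7 for any difference. All genes called ranged from 0 to 253, 0 to 104, 0 to 223 and 0 to 352 for CD103 DC over CD8a DC, CD103 DC over CD11b DC, CD8a DC over CD11b DC and any difference. With a library left out, the log2 fold change for CD103 DC over CD8a DC ranged from -0.51 to 0.041 in Mcm2, -0.40 to 0.053 in Pcna, -0.34 to 0.024 in Rrm1 and -0.19 to 0.043 in E2f1, and all 4 upper ends, above 0, came without CD8a DC replicate 3. E2f1 also turned above 0 with library-size scaling (0.022), without CD103 DC replicate 3 (0.0054) and without CD8a DC replicate 1 (0.037). For CD103 DC over CD11b DC the range was -0.38 to 0.055 in Cdt1, which turned without CD103 DC replicate 1, and -0.060 to 0.19 in E2f2, which turned without CD103 DC replicate 3 (-0.027) and CD11b DC replicate 3. None of these 10 values passed the test with all libraries, and the cause was not tested. All genes called higher and lower were 203 and 171 for CD8a DC over CD11b DC, 166 and 215 with library-size scaling and 285 and 146 with the GC correction. For CD103 DC over CD8a DC they were 169 and 104, 210 and 74 with library-size scaling, and 134 and 129 with the GC correction. Group sizes of 3, 3 and 2 limit these tests, and counts for Fen1 are too low for a fold.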

Other observations

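The order of libraries within the CD8a DC group was not the same for all members. For Gins1 and Pola2, replicate 2 was the highest of the 8 libraries, at 1030 and 1708 normalized counts, although replicate 3 was the highest for 45 of the 50 members. The pseudogene-like copy Pcna-ps2 was at 26.4 to 60.2 normalized counts, next to 2789 to 6881 for Pcna.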
